A study of Mus musculus with 2 samples.

Results

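Protein digestion at the surface of the duodenum was followed through 9 genes, 8 for peptidases of the enterocyte brush border and 1 for enteropeptidase, the protease that starts the activation of the pancreatic enzymes. They were chosen by symbol as Anpep, Enpep, Naaladl1, Dpp4, Ace, Dpep1, Mep1a, Mep1b and Tmprss15, and all 9 were found, as 1 row each, among 43346 gene rows. The tissue was whole duodenum of C57BL/6J mice 8 weeks old, pooled from male and female littermates, with no treatment named in the labels. Polyadenylated RNA was sequenced in 2 libraries of that 1 group, called replicate 2 and replicate 1 after the biological replicate numbers. The labels give both the same donor entry and do not say that the tissue came from separate animals, so every comparison below sets 1 library against the other, and what spread there is could be technical.

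Dietary protein is first cut by pepsin and by the pancreatic proteases, which reach the gut lumen as inactive precursors. Enteropeptidase, anchored in the duodenal brush border, cuts trypsinogen to trypsin, and trypsin then activates the other precursors. The oligopeptides that result are shortened on the microvillus membrane by peptidases that remove residues from the amino end, the carboxyl end or within the chain, and the free amino acids and small peptides enter the enterocyte through transporters.

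Replicate 2 held 45438504 expected counts (the quantifier's estimate of fragments per gene) and replicate 1 held 44977004. The 9 genes took 1.42% of all gene counts in replicate 2 and 0.261% in replicate 1. A count of 0 allows up to 3 counts, or 0.0671 CPM (the scale of a count's share of its library) in replicate 2 and 0.0678 CPM in replicate 1. Such floors and all intervals cover counting error only. Genes of absorptive enterocytes were present in both libraries, and all 24 listed had counts. Genes of the pancreas, stomach and Brunner's glands summed to 6518 TPM in replicate 2, against 131007 TPM in replicate 1. TPM is a transcript share scaled to length. Most of the replicate 2 sum came from Zg16, at 4507 TPM, against 1497 TPM in replicate 1. Whether the Zg16 RNA came from those organs and glands or from the rest of the duodenum cannot be told from whole tissue. Replicate 1 thus stands apart in the RNA of the listed organs and glands. Of the 49 such genes in the tables, 44 were called higher in replicate 1 by the test given below, and 3 (Zg16, Spink1 and Atp4b) higher in replicate 2. The part of that RNA in the differences below was not tested, except that the scaling was repeated without these genes.

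Summed over the 9 genes, levels reached 5058 TPM in replicate 2, against 860.0 TPM in replicate 1. Anpep made up 56.9% of that sum in replicate 2 and 63.4% in replicate 1. By mean TPM the order was Anpep, Ace, Naaladl1, Dpep1, Mep1b, Dpp4, Mep1a, Enpep and Tmprss15. Of the 8 neighbouring pairs in that order, 5 kept their order in both libraries, and 2 had ranges over the libraries that did not overlap, Mep1b above Dpp4 and Enpep above Tmprss15. Ranges of the other pairs overlapped, which for pairs read within a library says little. Anpep exceeded Ace 3.43-fold in replicate 2 and 3.68-fold in replicate 1, and Dpep1 exceeded Mep1b 3.38-fold in replicate 2 and 1.89-fold in replicate 1. The pairs that changed places were Naaladl1 with Dpep1, Dpp4 with Mep1a, and Mep1a with Enpep. In replicate 2 Dpp4 and Mep1a were nearly level, at 34.07 and 34.23 TPM. Their deposited bounds overlap there, so that order is not settled.

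**Figure D1:**
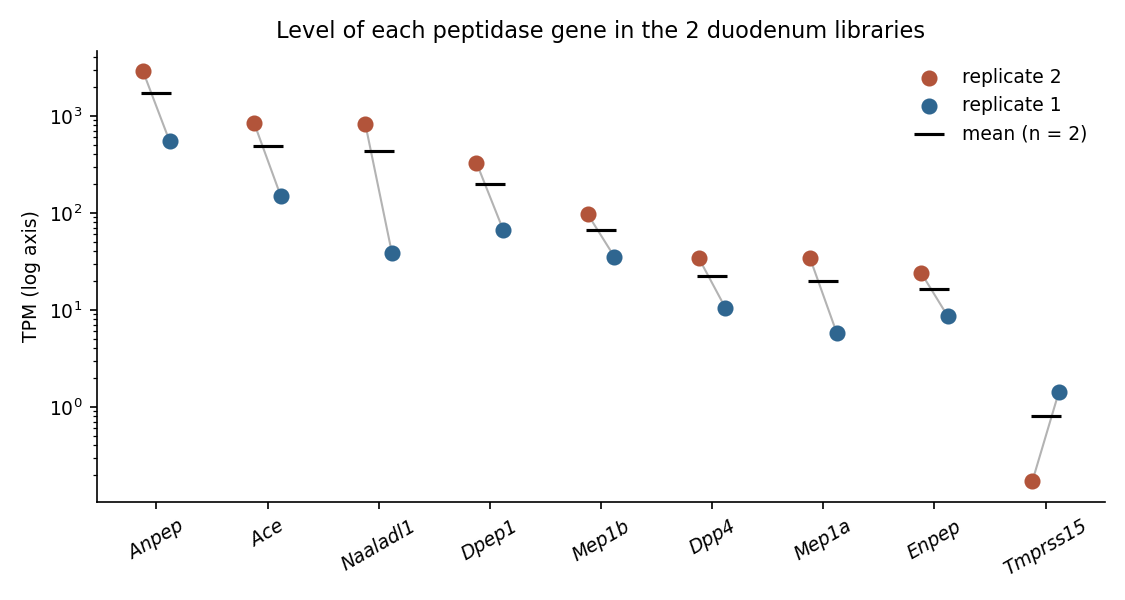
Level of each gene in TPM on a log axis, with replicate 2 and replicate 1 as points (replicate 2 to the left) and their mean as a bar (n = 2). The 8 brush border peptidases lie higher in replicate 2, and Tmprss15, at 0.17 and 1.43 TPM, lies higher in replicate 1.

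All 9 genes passed the filter (a mean of at least 10 counts), and all 9 differed between the libraries. A gene is called here where its exact two-sided binomial test, with Benjamini-Hochberg adjustment over 15916 genes, gave an adjusted p under 0.05 and the ratio of counts scaled with TMM (a scaling that assumes that most genes are alike) reached 2-fold. The 8 brush border peptidases were called higher in replicate 2, whereas 11.4% of all genes tested were, and Tmprss15 was called higher in replicate 1, whereas 14.5% were. On the log2 scale (replicate 2 over replicate 1) the 9 genes had a median of 2.45, and all genes tested -0.037. Among the 4951 genes whose mean TPM was at least that of Enpep, the lowest of the 8, 15.7% were called higher in replicate 2 and 5.92% higher in replicate 1. The largest adjusted p of the 9 was 8.3e-35, that of Tmprss15. In whole tissue, fewer cells of a type and less RNA per cell cannot be told apart.

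**Figure D2:**
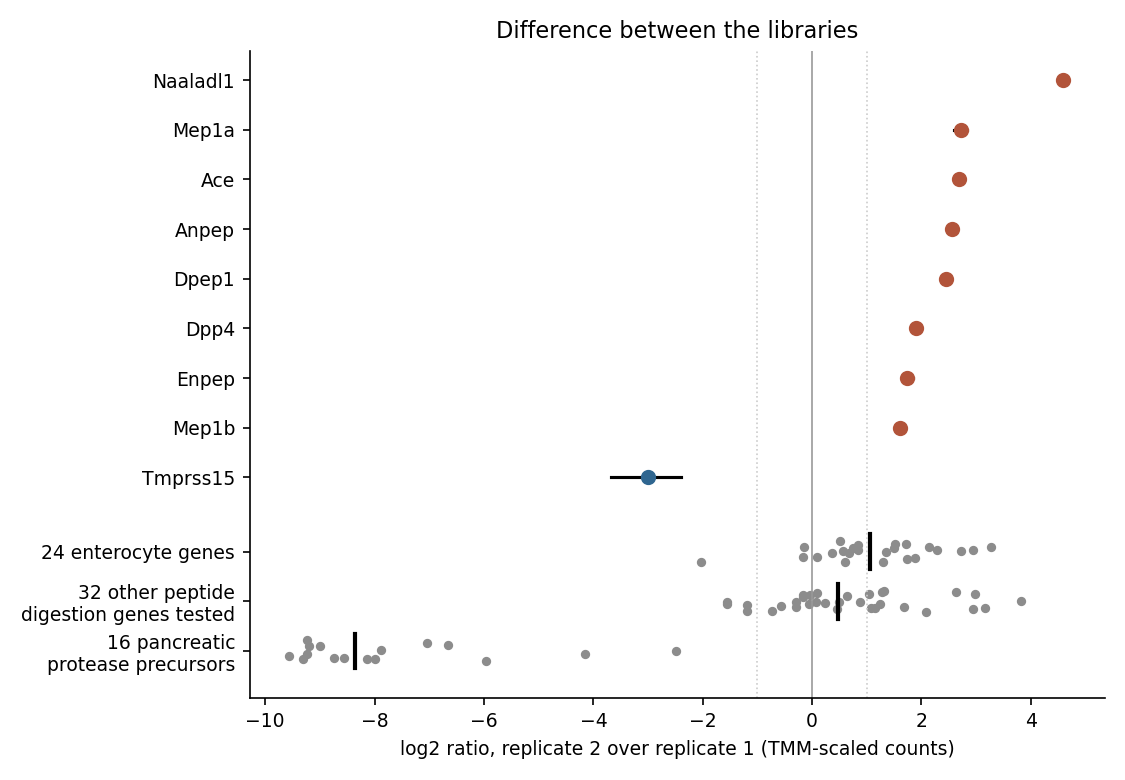
Log2 ratio of TMM-scaled counts, replicate 2 over replicate 1, for each of the 9 genes with its exact 95% interval (horizontal bar, often narrower than the point), above the same for 3 gene lists with medians as vertical bars. Dotted lines mark 2-fold, list points carry a pseudocount of 0.5 CPM, and the brush border peptidases lie between 3.06-fold and 24.1-fold, to the right of most enterocyte genes.

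The aminopeptidases came out at very different levels. Anpep (ENSMUSG00000039062.11, chromosome 7, 79821803 to 79861059 of mm10, minus strand) encodes aminopeptidase N, a zinc enzyme that removes neutral residues from the amino end of peptides. It lay at 2878 TPM in replicate 2, against 545 TPM in replicate 1, a mean of 1712 ± 1649 TPM (SD, n = 2, as for every SD here). That placed it at rank 47 by TPM among all genes in replicate 2 and at rank 216 in replicate 1. The ratio was 5.90-fold (95% interval 5.86 to 5.95, from 366439 and 72409 counts).

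Enpep (ENSMUSG00000028024.10, chromosome 3, 129269175 to 129332720, minus strand) encodes aminopeptidase A, which removes acidic residues and also trims angiotensin II. It was much lower, at 24.04 TPM in replicate 2, against 8.57 TPM in replicate 1 (16.3 ± 10.9 TPM). It was 3.35-fold higher in replicate 2 (3.14 to 3.58). Anpep thus exceeded Enpep 119.7-fold in replicate 2 and 63.6-fold in replicate 1 on the TPM scale. Enpep is also a gene of pericytes. The 8 listed genes of pericytes and vascular smooth muscle summed to 227 TPM in replicate 2, against 327 TPM in replicate 1. Of these, 0 were called higher in replicate 2 and 1 (Abcc9, 4.83-fold) higher in replicate 1. Most of both sums was Des (186 TPM in replicate 2, against 261 TPM in replicate 1), followed by Mcam (11.3 and 19.3 TPM).

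Naaladl1 (ENSMUSG00000054999.2, chromosome 19, 6105782 to 6115792, plus strand) encodes a membrane zinc peptidase of the family of glutamate carboxypeptidase II. It lay at 823 TPM in replicate 2, against 38.1 TPM in replicate 1 (431 ± 555 TPM). No other of the 9 differed so much, with a ratio of 24.1-fold (23.3 to 24.96, from 74312 and 3593 counts), and 0.471% of all genes tested had a ratio at least as high without a pseudocount. With the pseudocount of 0.5 CPM, which holds down low genes, that share was 0.10%. Its level nearly equalled that of Ace in replicate 2, where Ace exceeded it 1.02-fold, but not in replicate 1, where Ace exceeded it 3.89-fold. Its nearest neighbour in the annotation, Sac3d1, lies 208 bases away on the other strand and had 54.4 TPM in replicate 2, against 54.0 TPM in replicate 1. Of its relatives, Folh1, for glutamate carboxypeptidase II itself, had 0 counts in both libraries, and Naalad2 had 0 counts in replicate 2 and 2 in replicate 1.

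Dipeptides are released by Dpp4 and Ace and cut by Dpep1. Dpp4 (ENSMUSG00000035000.8, chromosome 2, 62330073 to 62412231, minus strand) encodes dipeptidyl peptidase 4, which removes dipeptides ending in proline or alanine from the amino end and also inactivates the incretin hormones. It lay at 34.1 TPM in replicate 2, against 10.4 TPM in replicate 1 (22.3 ± 16.7 TPM), and was 3.75-fold higher in replicate 2 (3.57 to 3.94). T lymphocytes carry the same enzyme on their surface, as CD26. Of 12 T lymphocyte genes, 11 were called higher in replicate 2, with a median log2 ratio of 1.29. Their sum was 93.8 TPM in replicate 2, against 32.9 TPM in replicate 1, led by Trbc1 at 28.8 and 12.2 TPM and Trbc2 at 15.7 and 2.74 TPM, pairs given for replicate 2 and then replicate 1. Their part in the Dpp4 difference was not tested.

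Ace (ENSMUSG00000020681.10, chromosome 11, 105967945 to 105989964, plus strand) encodes angiotensin-converting enzyme, which removes dipeptides from the carboxyl end. It lay at 839.5 TPM in replicate 2, against 148 TPM in replicate 1 (494 ± 489 TPM), at rank 175 and rank 834 among all genes in the same order. The ratio was 6.47-fold (6.38 to 6.55). Blood endothelium is the other well-known site of the enzyme. Its 10 listed genes summed to 495 TPM in replicate 2, against 384 TPM in replicate 1, 382 and 277 TPM of that from Plvap and 50.6 and 52.8 TPM from Eng. Only Cldn5 of these was called, at 2.28-fold higher in replicate 2, and the list's median log2 ratio was 0.13. What part endothelial cells had in the Ace difference, or pericytes in that of Enpep, was not tested.

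Dpep1 (ENSMUSG00000019278.4, chromosome 8, 123186242 to 123201812, plus strand) encodes the membrane dipeptidase, which splits dipeptides and takes part in glutathione breakdown. It lay at 327 TPM in replicate 2, against 66.7 TPM in replicate 1 (197 ± 184 TPM), and was 5.48-fold higher in replicate 2 (5.32 to 5.64). Its paralogs were far lower, with Dpep2 at 1.27 TPM in replicate 2, against 1.34 TPM in replicate 1, and Dpep3 at 0.31 and 0.15 TPM in that order. The annotation places a longer coding gene on the same strand, Gm20388, over the whole of Dpep1. Gm20388 had 5749 expected counts in replicate 2 and 6510 in replicate 1, in the opposite order to Dpep1. How fragments that both genes could explain were split could not be read from the tables, so the Dpep1 level is uncertain to that extent.

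The meprins cut within peptide chains. Mep1a (ENSMUSG00000023914.12, chromosome 17, 43474324 to 43502812, minus strand) and Mep1b (ENSMUSG00000024313.7) encode the alpha and beta subunits of these astacin-type metalloproteases, which pair as homo- and heterooligomers. Mep1a lay at 34.2 TPM in replicate 2, against 5.82 TPM in replicate 1 (20.02 ± 20.1 TPM), a ratio of 6.58-fold (6.06 to 7.17). Mep1b lay at 96.9 TPM in replicate 2, against 35.3 TPM in replicate 1 (66.1 ± 43.6 TPM), a ratio of 3.06-fold (2.94 to 3.20). RNA for the beta subunit was therefore the more abundant in each library. It exceeded RNA for the alpha subunit 2.83-fold in replicate 2 and 6.07-fold in replicate 1. The intervals of the subunits' ratios between the libraries do not overlap.

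Enteropeptidase ran the other way. Tmprss15 (ENSMUSG00000022857.9, chromosome 16, 78953008 to 79091097, minus strand) lay at 0.17 TPM in replicate 2, against 1.43 TPM in replicate 1 (0.80 ± 0.89 TPM), from 24 and 224 counts in the same order. It was 8.00-fold higher in replicate 1 (5.24 to 12.7; adjusted p = 8.3e-35, exact binomial test), and 2.93% of all genes tested were at least as much higher there without a pseudocount, or 1.61% with it. The deposited bounds on its TPM were 0.112 to 0.247 in replicate 2 and 1.25 to 1.63 in replicate 1, and for each of the 9 genes the bounds of the libraries lay apart. By TPM it stood at rank 15260 of all genes in replicate 2 and 11712 in replicate 1, below every one of the peptidases in both. All 16 listed pancreatic protease precursors, trypsinogens among them, were also called higher in replicate 1. They summed to 131 TPM in replicate 2, against 73631 TPM in replicate 1, led by Ctrb1 at 48.5 and 31455 TPM and Cela2a at 27.2 and 13097 TPM, again replicate 2 before replicate 1. The part of RNA of the pancreas, stomach and Brunner's glands in the Tmprss15 difference was not tested.

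Relative to other enterocyte genes the 8 peptidases did not all move alike. Of the 24 enterocyte genes listed, 12 were called higher in replicate 2, 1 (the phosphatase Alpi, 4.08-fold) higher in replicate 1, and 11 were not called, with a median log2 ratio of 1.07. By mean TPM the most abundant were the apolipoproteins Apoa1, 13844 TPM in replicate 2, against 2308 TPM in replicate 1, and Apoa4, 7926 and 2380 TPM in that order. Alpi, at 1568 TPM in replicate 2, against 7153 TPM in replicate 1, was the most abundant of the list in replicate 1. Each ratio was also taken relative to the list's median, an alternative added after the data were seen. On that scale 5 of the 8 were still called higher in replicate 2, as were 439 of all 15916 genes tested. Higher in replicate 1 were 8779 genes. The 5 peptidases were Naaladl1 (log2 3.52), Ace (1.62), Mep1a (1.61), Anpep (1.49) and Dpep1 (1.38). Dpp4 (0.83), Enpep (0.66) and Mep1b (0.54) stayed above the median but under the 2-fold limit. Tmprss15 lay at -3.32 on that scale.

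Peptide handling beyond the 9 genes was read from 35 other genes, for further peptidases and for peptide and amino acid transporters, of which 32 passed the filter. Of these, 13 were called higher in replicate 2, where 11.4% of all genes tested were. The 4 called higher in replicate 1 did not exceed the 14.5% of all genes called so. The other 15 were not called, and the median log2 ratio of the 32 was 0.47. By mean TPM the highest were the glutathione-cleaving Ggt1 (837 TPM in replicate 2, 525 TPM in replicate 1), the proline dipeptidase Pepd (768 and 141 TPM, in that order as for each pair here), the neutral amino acid transporter Slc6a19 (441 and 169 TPM), the aminoacylase Acy1 (369 and 173 TPM) and the membrane serine protease St14 (193 and 118 TPM). All of these but St14 (1.84-fold) were called higher in replicate 2. Scaled by library totals or by ERCC spike-ins, 9 of the 13 calls held, and Ggt1, Pgpep1, Rnpep and Xpnpep1 fell under the 2-fold limit. Ggt1 was then 1.76-fold higher in replicate 2 by library totals and 1.75-fold by ERCC spike-ins.

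The 3 largest ratios towards replicate 2 in that list were those of Cndp2, Lap3 and Xpnpep2. Cndp2, a cytosolic dipeptidase, had 273 TPM in replicate 2, against 21.35 TPM in replicate 1, a ratio of 14.3-fold. The leucine aminopeptidase Lap3 had 74.3 and 9.02 TPM in the same order, 9.18-fold. Xpnpep2, a membrane aminopeptidase for bonds to proline, had 61.0 and 8.28 TPM, 8.03-fold. The di- and tripeptide transporter Slc15a1, singled out after its values were seen and also on the enterocyte list, had 124.7 TPM in replicate 2, against 18.1 TPM in replicate 1, 7.72-fold.

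The 4 genes called higher in replicate 1 were Lnpep (0.27 TPM in replicate 2, against 1.12 TPM in replicate 1, 3.70-fold), Cpd (5.99 and 19.9 TPM, 2.97-fold), Tpp2 (0.79 and 2.12 TPM, 2.56-fold) and Nln (1.43 and 3.88 TPM, 2.42-fold). Lnpep and Cpd encode membrane peptidases of many cell types, Tpp2 a large cytosolic peptidase and Nln neurolysin. In the plot of levels in both libraries, Lnpep lies closest to Tmprss15.

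**Figure D3:**
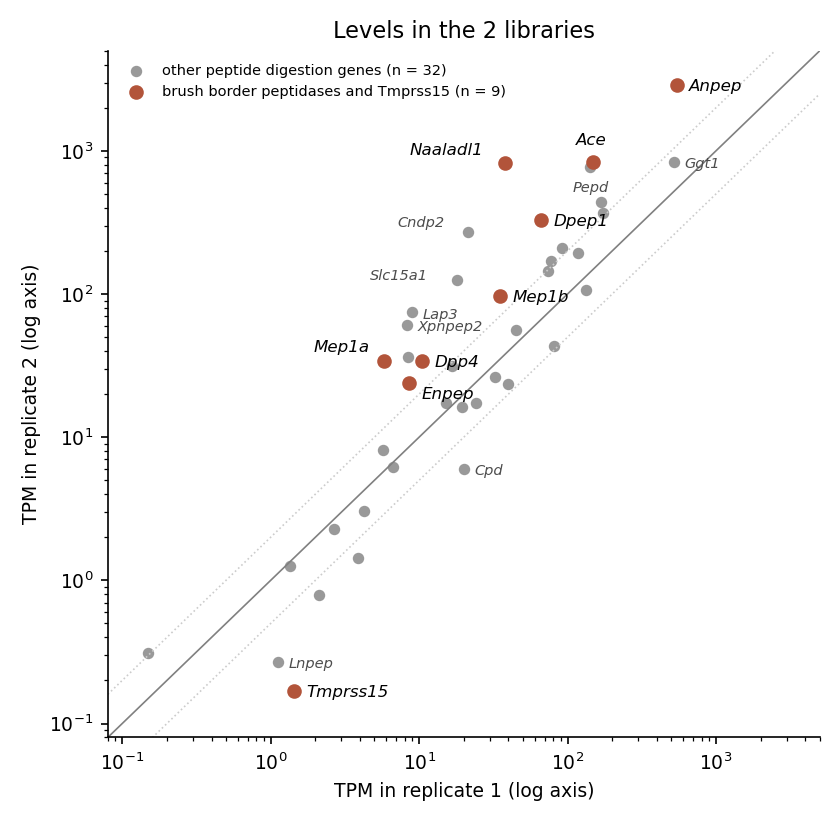
TPM in replicate 2 (vertical, log axis) against TPM in replicate 1 (horizontal, log axis) for the 9 genes and 32 other genes of peptide digestion; the solid line marks equal levels and the dotted lines 2-fold. The 8 brush border peptidases lie above the upper dotted line, with Naaladl1 farthest from it, and Tmprss15 lies below the lower one.

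Transcript shares came from the deposited isoform percent, the part of a gene's TPM that the quantifier gave to each annotated transcript. The 9 genes had 27 transcripts in the tables, of which 19 held counts in either library, and 3 genes (Naaladl1, Dpep1 and Mep1b) had 1 transcript each. The leading transcript was the same in both libraries for 8 of the 9. The exception was Tmprss15, where the form with 28 exons held 39.99% in replicate 2 and 66.4% in replicate 1, and the form with 27 exons the remainder. In replicate 2 those shares rest on 10.4 and 13.6 expected counts, and the deposited TPM bounds of the 2 forms overlap in both libraries, so neither library settles which form leads. Mep1a had its whole expected count on Mep1a-201 in both libraries.

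Ace has a transcript for the long somatic enzyme, Ace-201, and a short one for the testis form, Ace-202, which starts 7263 bases downstream inside the gene. Ace-201, whose coding sequence spans 1312 codons, had 667 TPM in replicate 2, against 109 TPM in replicate 1, or 79.4% and 73.8% of the gene. Ace-202 (732 codons) was at 0.10 TPM in replicate 2 and 0 in replicate 1, with 8.88 and 0 expected counts. The remainder was nearly all Ace-203, which starts 3378 bases downstream of Ace-201, shares 18 of its 20 exons with it, and had 173 TPM in replicate 2, against 38.9 TPM in replicate 1. The windows at the somatic and testis starts are shown because the counts fall so unevenly on them. They are RefSeq windows of 250 bases before to 50 bases after a start on GRCm38.p6 (the assembly behind mm10), at chr11:105967698-105967997 and chr11:105974939-105975238 on the plus strand. Capitals mark 3 motifs on either strand. GGGCGG is the GC box. The TATA box was searched as TATAAA. For HNF4 sites the core CAAAGT was searched.
Ace somatic start: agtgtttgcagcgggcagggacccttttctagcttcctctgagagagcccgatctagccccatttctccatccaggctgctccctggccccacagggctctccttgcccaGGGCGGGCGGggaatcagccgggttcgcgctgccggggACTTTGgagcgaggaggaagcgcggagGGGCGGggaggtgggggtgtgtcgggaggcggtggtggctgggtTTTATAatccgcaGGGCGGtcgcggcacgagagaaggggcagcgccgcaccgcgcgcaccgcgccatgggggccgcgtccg
Ace testis start: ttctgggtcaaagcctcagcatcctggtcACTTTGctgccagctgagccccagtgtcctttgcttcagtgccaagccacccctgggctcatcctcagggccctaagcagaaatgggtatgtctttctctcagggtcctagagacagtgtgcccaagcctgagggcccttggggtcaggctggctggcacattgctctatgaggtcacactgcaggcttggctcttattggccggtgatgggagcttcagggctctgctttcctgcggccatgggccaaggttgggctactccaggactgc

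The somatic window holds 4 GC boxes, one pair of them overlapping, with a TATAAA match on the minus strand beginning 31 bases before the start, and its GC content is 69.7%. The testis window holds only a CAAAGT match, 221 bases before its start. Over all 32851 RefSeq windows of this length, GGGCGG occurs in 35.7%, TATAAA in 13.6% and CAAAGT in 14.4%. Such a match is a description of letters, not a site in use.

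Anpep also has an upstream start. Anpep-201 had 2849 TPM in replicate 2, against 528 TPM in replicate 1, or 99.0% and 96.8% of the gene. Anpep-202, which starts 5858 bases upstream of it and encodes the same number of codons (966), had 28.5 TPM in replicate 2, against 17.7 TPM in replicate 1. Between the libraries the TPM of Anpep-201 differed 5.40-fold and that of Anpep-202 1.61-fold, both higher in replicate 2. Myeloid cells are another known site of aminopeptidase N. Of 11 myeloid genes, Csf1r, Itgax, Fcgr1, C1qa and C1qb were called higher in replicate 2 and 0 in replicate 1, and their sum was 359 TPM in replicate 2, against 213 TPM in replicate 1, led by C1qc (117 and 72.3 TPM) and C1qa (87.6 and 41.1 TPM). Their part in the Anpep difference was not tested. The only RefSeq window for Anpep lies at the upstream start, the one with the minor share, at chr7:79848161-79848460 on the minus strand of GRCm38.p6. Its capitals mark 4 GC boxes, and its GC content is 72.3%.
Anpep upstream start: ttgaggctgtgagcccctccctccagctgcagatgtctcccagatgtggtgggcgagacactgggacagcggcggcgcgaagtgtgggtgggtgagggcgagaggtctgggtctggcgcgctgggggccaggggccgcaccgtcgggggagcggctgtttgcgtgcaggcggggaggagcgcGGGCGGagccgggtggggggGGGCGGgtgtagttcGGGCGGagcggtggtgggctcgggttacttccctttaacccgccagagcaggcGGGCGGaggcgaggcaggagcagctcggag

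The leading transcript of Enpep, Enpep-201, held 83.4% in replicate 2 and 70.7% in replicate 1. Enpep-205, annotated as a target of nonsense-mediated decay, held 16.3% and 21.7% in the same order, and Enpep-203, with a retained intron, 0.33% and 7.60%. The last of these had 6.27 expected counts in replicate 2 and 53.0 in replicate 1. The leading coding transcript of Dpp4 held 97.2% of its gene in replicate 2 and 95.1% in replicate 1.

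**Figure D4:**
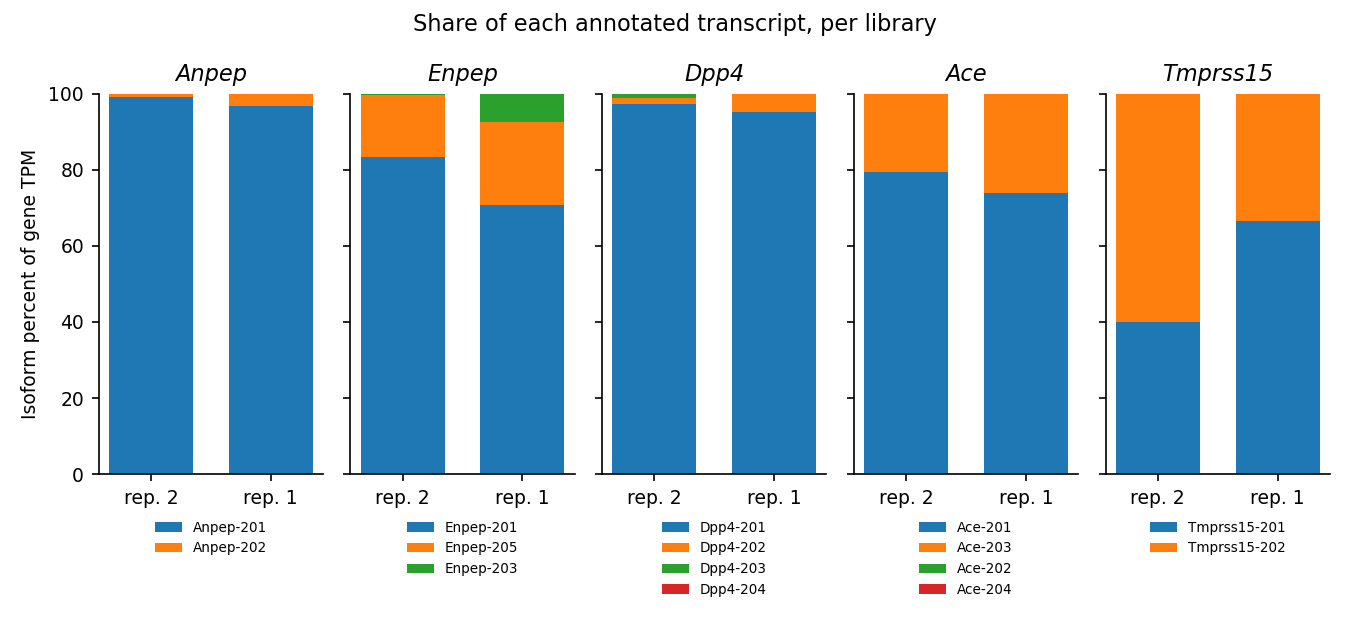
Isoform percent of each annotated transcript with counts, as stacked bars per library (replicate 2 to the left), for the 5 genes with more than 1 transcript detected. Ace-201 and Anpep-201 lead in both libraries at 73.8% or more, while the order of the 2 Tmprss15 forms, whose deposited bounds overlap in both libraries, is not settled.

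Beside Ace and Anpep, RefSeq windows were at hand for Dpp4, Enpep, Dpep1, Mep1a and Tmprss15, 8 windows of 7 genes in all. Those of Mep1a and Tmprss15 are shown because these genes stand on opposite sides of the library difference. Mep1a lies at chr17:43502724-43503023 and Tmprss15 at chr16:79091048-79091347, both on the minus strand of GRCm38.p6, and capitals mark TTTATG (the core of CDX sites), CAAAGT (HNF4) or GTTAAT (HNF1) on either strand.
Mep1a: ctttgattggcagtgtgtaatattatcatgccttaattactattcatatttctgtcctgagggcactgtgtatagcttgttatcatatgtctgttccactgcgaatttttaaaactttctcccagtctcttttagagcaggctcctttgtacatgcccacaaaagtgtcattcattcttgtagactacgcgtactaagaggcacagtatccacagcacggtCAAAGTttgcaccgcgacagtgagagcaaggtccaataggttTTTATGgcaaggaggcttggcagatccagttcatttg
Tmprss15: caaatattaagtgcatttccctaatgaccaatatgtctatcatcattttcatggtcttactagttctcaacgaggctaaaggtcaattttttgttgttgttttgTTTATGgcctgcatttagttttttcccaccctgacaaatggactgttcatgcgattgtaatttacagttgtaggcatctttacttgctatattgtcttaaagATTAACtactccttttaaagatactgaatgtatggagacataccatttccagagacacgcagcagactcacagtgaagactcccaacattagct

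A TTTATG match occurs in both, 13 bases after the start of Mep1a and 146 bases before that of Tmprss15, as it does in 11.9% of all windows. Mep1a also holds CAAAGT 29 bases before its start. Tmprss15 holds GTTAAT, on the minus strand, 44 bases before its start, a match found in 7.10% of all windows. Both windows are low in GC, at 42.3% and 36.3%, where the median window has 52.7%. Among the 8 windows AGATAA was found only in Dpp4, 32 bases before its start, and it occurs in 11.2% of all windows. It was the only form of the GATA site searched, so other forms may be present.

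Of 13 intestinal transcription factors, Cdx1, Cdx2, Gata5, Isx and Maf were called higher in replicate 2. Pdx1, a factor of duodenum and pancreas, was called higher in replicate 1, at 95.5-fold. The median log2 ratio of the 13 was 0.40. Cdx2 had 376 TPM in replicate 2, against 139.5 TPM in replicate 1, and Klf5, at 344 and 289 TPM, was not called. Fibroblast genes had 1 of 8 called in each direction, Fbln1 (478 TPM in replicate 2, against 187 TPM in replicate 1) and Dpt (2.72-fold higher in replicate 1). Their sum was 562 TPM in replicate 2, against 331 TPM in replicate 1, with Col1a2 at 17.0 and 42.15 TPM, and their median log2 ratio was -0.47. Without Fbln1 the remaining 7 summed to 84.1 TPM in replicate 2, against 143.4 TPM in replicate 1, and each had the lower TPM in replicate 2.

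Base composition moved weakly with the ratio. Across 15867 tested genes Spearman's rho between the GC content of the leading transcript and the log2 ratio was 0.18, a description over genes that share 2 libraries. The 9 genes spanned 39.98% GC for Tmprss15 to 56.6% for Naaladl1. The median log2 ratio of genes in 20 bins of GC content ran between -0.28 and 0.25, smaller in size than the ratio of each of the 9, and with each bin's median taken off all 9 calls held.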

How the data were processed

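Gene and transcript tables of 2 mouse duodenum libraries were used. Their reference was mm10 with GENCODE M4, per text files the authors deposited (aligner and quantifier not given in the sources used here). Stranded libraries gave paired reads, per the labels. The expected counts that the authors deposited are estimated fragments, not normalised. The authors scaled TPM to transcript length and to a common total, spike-ins included, and deposited FPKM values scaled to length and fragments, per the file headers. Isoform percent, also deposited, is a transcript's share of its gene's TPM. The deposited bounds on TPM (a signal range with no level given) entered no test. Splice junctions and contigs, in mm9 coordinates, were not used here.

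Symbols and positions came from GENCODE M21 (42462 of 43346 gene rows matched). Spike-ins (1.36% of counts in replicate 2, 1.35% in replicate 1), 26248 numbered rows at 0 and 1 phiX row stayed out of library sizes and tests. Before testing, expected counts were rounded, then scaled by TMM (edgeR 4.0.16, R 4.3.3). The exact binomial test given scaled library sizes (scipy 1.17.1) compares 2 libraries, not conditions. Log2 ratios carry a pseudocount of 0.5 CPM, which understates those of low genes. Fold intervals are exact 95% Clopper-Pearson intervals. Alternative scalings were DESeq2 1.42.0 size factors, library totals, ERCC spike-ins and TMM without the genes of pancreas, stomach and Brunner's glands. Further alternatives were no filter, posterior mean counts, TPM plus 1 and a limit of 1.5-fold, with 2 added later.

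Members and gene lists were chosen with earlier results of these data known. Beside the 9 members, the text names the 5 highest and the 3 largest called ratios in each direction of the peptide digestion list, the 2 highest of each other list, any count of 5 or fewer, and relatives of members.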

Additional observations from a re-analysis of the deposited data

How the results depend on the processing

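All 9 calls between the libraries held under DESeq2 size factors, library totals, ERCC spike-ins and TMM without the genes of pancreas, stomach and Brunner's glands. They also held with no filter on low counts, posterior mean counts, GC bins and, in size, TPM plus 1. At a limit of 1.5-fold the counts stayed at 8 and 1. They could not have changed, since all 9 genes were already called at 2-fold. Relative to the enterocyte list's median, chosen after seeing the data, 5 brush border peptidases were called higher in replicate 2. The other peptide digestion genes then split into 6 higher in replicate 2 and 12 higher in replicate 1. All 15916 genes tested had 439 and 8779 in that order, since that scaling shifts every ratio by 1.07. No ratio of the 9 changed sign under any of these alternatives. Library totals and ERCC scaling moved the median log2 ratio of all genes to -0.24 for each, and the share of calls that were higher in replicate 2 to 28.5% and 28.2%, against 44.0% with TMM. Tmprss15 ranged between -3.32 and -1.05 in log2 ratio, the smaller one in size on the TPM plus 1 scale, where its low level compresses the ratio. With 2 libraries, leaving either out leaves 1 value and no ratio, and each level without replicate 1 or without replicate 2 is the library value given above. From the posterior mean TPM the mean share of the leading transcript was 92.3% for Dpp4 and 91.6% for Mep1a. No paired analysis was possible because there is 1 group. The 24 and 224 counts of Tmprss15 limit its isoform shares.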
